A study of Mus musculus with 6 samples.

Results

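The 10 genes described here, B2m, H2-K1, H2-D1, H2-T23, Tap1, Tap2, Tapbp, Psmb8, Psmb9 and Nlrc5, encode the core of MHC class I antigen presentation. They were chosen by name from the 24346 gene symbols of the deposited data, with earlier results of these data known but by no threshold on their levels, and all 10 were found. Expression was measured by RNA-seq in endothelial cells (ECs) sorted as CD31-positive and CD45-negative cells from MC38 tumors, a mouse colon carcinoma line grown under the skin. ECs came from 3 WT and 3 Apelin-KO samples. Both groups are on the C57BL/6 background, were 8 to 10 weeks old by the study's general methods, and had their tumors taken at day 19. All 6 titles also name saline. Apelin-KO mice lack Apln, which encodes the secreted peptide Apelin, in the whole host and not only in ECs, while the same tumor line was injected into both groups. Values are FPKM (reads assigned to a gene, divided by the length of its transcript and by the mapped reads of the sample), which allow levels of different genes to be set side by side. The labels do not say whether each sample was 1 mouse or a pool, so the p-values measure the spread between these samples.

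In class I presentation, proteins in the cytosol are cut by the proteasome, and the peptides are carried into the endoplasmic reticulum, loaded onto a heavy chain paired with β2-microglobulin, and shown at the cell surface to CD8+ T cells. Interferon-γ raises the whole pathway, in part by replacing catalytic subunits of the standard proteasome with immunoproteasome subunits and through the transactivator NLRC5, which works at an upstream element shared by class I promoters. ECs carry class I molecules constitutively and line the route by which T cells enter a tumor. Nearly all nucleated cells express these genes, so RNA from any other cell in a sort adds to their level.

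Several of the genes have promoters in which the binding motifs of interferon- and NF-κB-responsive factors lie side by side. They are shown because these are the elements through which class I genes are known to respond together. RefSeq promoter windows (GRCm38.p6, the build of the authors' mm10) were matched for 8 of the 10 genes, with 9 windows. Each stretch is written 5′ to 3′ on the strand of the gene. Capitals mark a κB match (GGGNNNNNCCC) and a match to an interferon-stimulated response element (ISRE), either GAAANNGAAA or the shorter GAANNGAAA, read on either strand. Neither ISRE form contains the other, and the κB letters read the same on both strands.
H2-K1, chr17:34000429-34000458, minus strand: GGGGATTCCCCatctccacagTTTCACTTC
H2-D1, chr17:35262923-35262952, plus strand: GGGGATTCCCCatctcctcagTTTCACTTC
B2m, chr2:122147548-122147570, plus strand: GAAACTGAAAatGGGAAAGTCCC
H2-T23, chr17:36032806-36032835, minus strand: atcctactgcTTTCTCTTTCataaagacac

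The stretches of both classical heavy chains were identical at 29 of 30 bases, the difference being A18T from H2-K1 to H2-D1, counted from 1 at the 5′ end. H2-K1 has 2 RefSeq starts with a window each. Its κB match lay 111 to 101 bases before the first and 125 to 115 bases before the other, and its ISRE match 90 to 82 and 104 to 96 bases. The H2-D1 stretch lay 171 to 142 bases before the RefSeq start, where it overlaps a 5′ UTR of GENCODE. The exact letters GGGGATTCCCC were present in 10 of 32851 windows of 250 bases (0.0304%), belonging to 9 genes, of which H2-K1, H2-D1 and H2-Q6 are class I heavy chains. In the B2m stretch the ISRE letters, 139 to 130 bases before the start, came ahead of κB letters at 127 to 117 bases. The B2m window held a further κB match, at 187 to 177 bases, upstream of the ISRE. H2-T23 carried an ISRE match without a κB match in its window. Over all windows, the κB letters were found in 12.2%, the longer ISRE in 2.98% and the shorter in 6.31%. The longer context of H2-K1 and of B2m is shown with the CRE-like TGACG and a reversed CCAAT box (ATTGG) also in capitals, since these lie in the region bound by the RFX, CREB and NF-Y factors with which NLRC5 acts.
H2-K1, chr17:34000348-34000487, minus strand: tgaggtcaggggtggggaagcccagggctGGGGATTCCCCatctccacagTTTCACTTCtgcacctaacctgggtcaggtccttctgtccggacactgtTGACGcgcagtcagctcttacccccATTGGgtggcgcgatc
B2m, chr2:122147546-122147685, plus strand: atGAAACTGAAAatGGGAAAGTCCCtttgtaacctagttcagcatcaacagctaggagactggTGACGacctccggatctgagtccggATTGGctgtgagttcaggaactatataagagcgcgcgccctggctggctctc

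TGACG was found in 17.8% and CCAAT in 33.8% of all windows on either strand. In the windows of Tap1 and Psmb9 no ISRE letters were found, and each held a κB match, a CCAAT match and a TGACG match. Both starts lie 226 bases apart on opposite strands (chr17:34187556 for Tap1 and chr17:34187330 for Psmb9), so their windows overlap. The κB, CCAAT and TGACG matches lie in this overlap and are the same sites, read on opposite strands and counted in both windows. Psmb8 held a match to TTCNNNGAA, the letters of a GAS (interferon-γ-activated) element, which 7.02% of windows hold, and Tapbp held CCAAT matches alone. These matches are letters in a window and not measured binding sites. In the GENCODE annotation of GRCm38, 8 of the 10 genes lie on chromosome 17, from Tapbp (chr17:33915899-33929292) to H2-T23 (chr17:36029773-36032855). B2m lies on chromosome 2 (chr2:122147686-122153083) and Nlrc5 on chromosome 8 (chr8:94434356-94527272).

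The targeted gene went with the labels: Apln was at 432, 435 and 504 FPKM in WT and at 9.96, 17.5 and 24.4 FPKM in Apelin-KO. On log2(FPKM + 1) it was 4.73 higher in WT (SE 0.29, adjusted p = 0.00747, limma), and it was the only one of the 10964 genes tested (those averaging 1 FPKM or more) with an adjusted p under 0.05, which is 0.00912% of them. Its adjusted p was 0.077 without WT 2 and 0.108 without Apelin-KO 2, with a difference of 4.76 and 4.78. The endothelial markers Pecam1 (553 to 846 FPKM) and Cdh5 (155 to 294 FPKM) were high in all 6 samples, and the genes that define the other gate and the tumor line were low, with Ptprc, which encodes CD45, at 0.043 to 4.84 FPKM and Epcam, an epithelial marker, at 0 to 0.264 FPKM. The hematopoietic marker with the highest mean, the macrophage gene Lyz2, was at 40.9 to 380 FPKM, and Krt20 of the tumor cell list was at 6.41 to 20.6 FPKM. Depth was estimated from the steps of low values at 8950000 to 10200000 reads per sample.

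The level of the 10 genes spanned from one of the most abundant mRNAs of these ECs to a scarce one. Over the 6 samples, B2m, the light chain common to all class I molecules, had a mean of 6486 FPKM and the fourth highest value of all genes. The classical heavy chains followed, with H2-D1 at 2328 FPKM (rank 12) and H2-K1 at 987.6 FPKM (rank 35). Psmb8 had a mean of 359.5 FPKM and Tapbp of 237.7 FPKM, and down to Tapbp the range of each gene over the samples lay apart from that of the next. Psmb9 (151.6 FPKM), Tap1 (119 FPKM), H2-T23 (84.3 FPKM) and Tap2 (83.5 FPKM) came next in this order, and the ranges of neighbours among these 4 overlapped. Tap2 and H2-T23 were not separable, H2-T23 being the higher in only 2 of 6 samples. Nlrc5, the transactivator, stood far below at 4.24 FPKM. The estimated reads behind these values ran from 157 for Nlrc5 in Apelin-KO 3 to 51245 for H2-D1 in Apelin-KO 2.

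**Figure D1:**
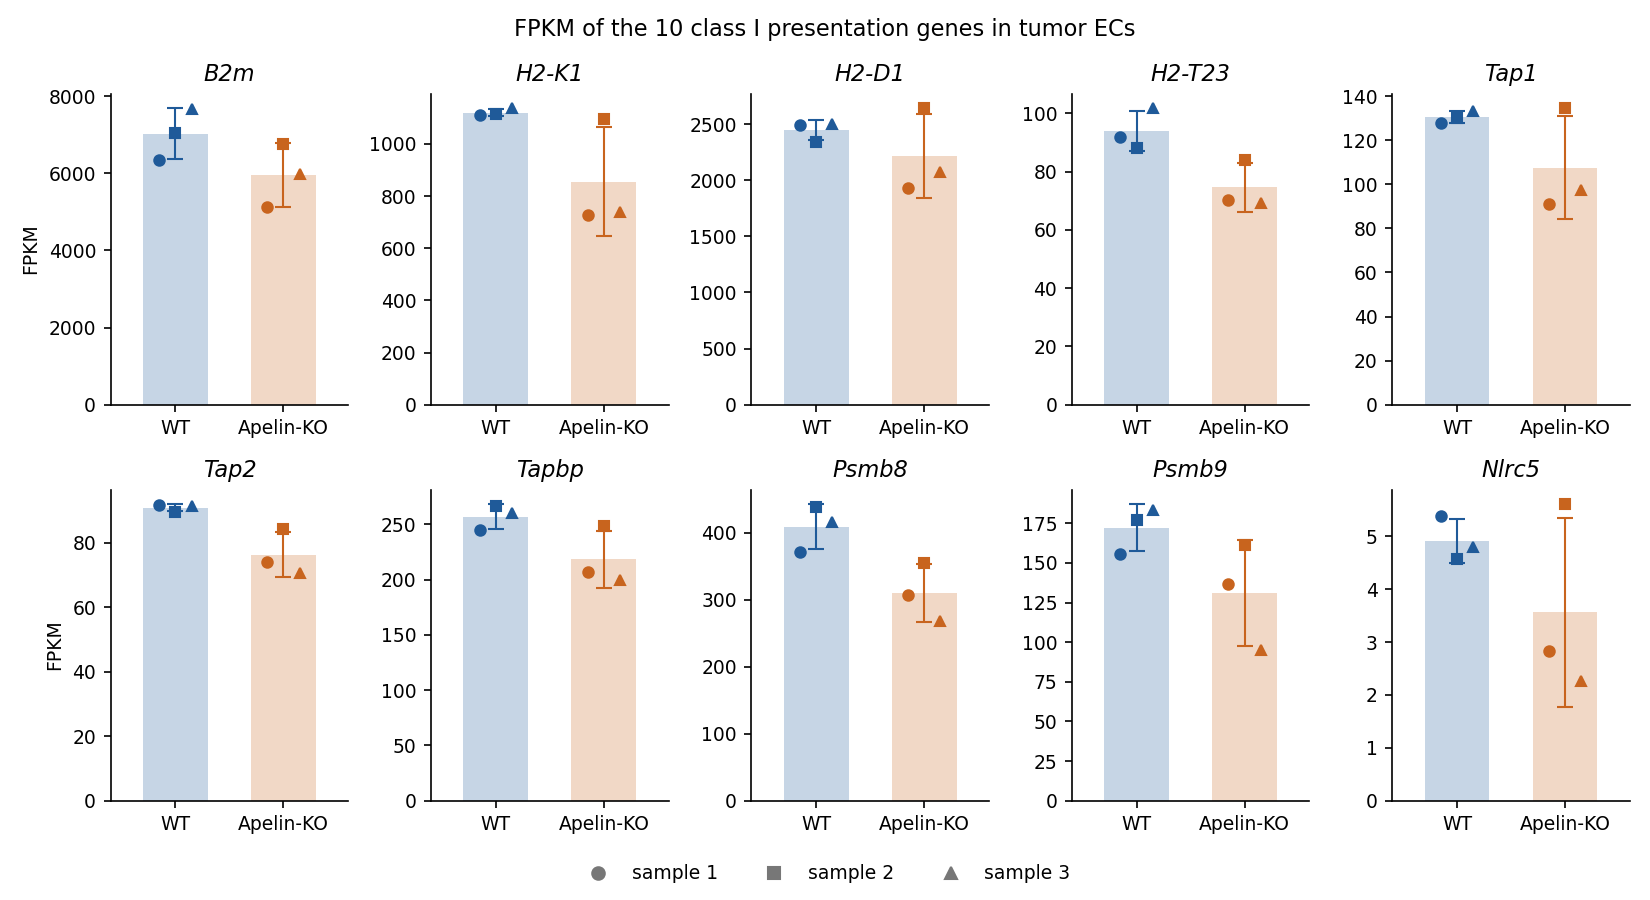
FPKM (vertical axes, from 0, a scale for each gene) of the 10 class I presentation genes in 3 WT and 3 Apelin-KO tumor EC samples, with points for the samples, bars for the means and lines for the SD (n = 3). The square of Apelin-KO, sample 2, sits at or near the WT points for most genes, whereas the circle and the triangle, samples 1 and 3, sit below all WT points for each of the 10 genes.

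The comparison of WT with Apelin-KO asks which transcripts of tumor ECs go with the loss of Apelin. All 10 class I presentation genes had a higher mean in WT, by 0.15 to 0.44 on the log2(FPKM + 1) scale, with a median of 0.31, against a median of -0.01 over all genes tested, of which 47.5% were higher in WT. None of the 10 reached an adjusted p under 0.05 in limma, and the lowest was 0.503. At an unadjusted p under 0.05, 4 of the 10 were higher in WT (Psmb8, H2-T23, H2-K1 and Tap2), where 5.17% of all genes tested were. These 4 were also the genes with every WT sample above every Apelin-KO sample, which held for 6.61% of all genes. Bulk values of this kind cannot tell fewer cells of a type from less RNA per cell.

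Among the classical heavy chains, which present peptides to CD8+ T cells, H2-K1 reached 1111, 1114 and 1137 FPKM in WT 1, 2 and 3, whereas Apelin-KO 1, 2 and 3 had 729, 1096 and 739 FPKM. The WT samples had a CV of 1.3%, and all were above Apelin-KO, though Apelin-KO 2 reached 97.8% of the WT mean. The difference was 0.42 (95% interval 0.02 to 0.82, unadjusted p = 0.0434, adjusted p = 0.522, limma). H2-D1 was at 2487, 2341 and 2501 FPKM in WT and at 1930, 2640 and 2071 FPKM in Apelin-KO. Here the highest of all 6 values was that of Apelin-KO 2, so the groups overlapped. The difference of H2-D1 was 0.15 (interval -0.17 to 0.48, adjusted p = 0.746, limma), the smallest of the 10.

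The non-classical heavy chain H2-T23 (Qa-1) presents leader peptides of other class I molecules to inhibitory receptors of NK cells and T cells. It was at 92, 88.3 and 102 FPKM in WT and at 70.4, 84.2 and 69.2 FPKM in Apelin-KO. Every WT value was higher, the margin between the lowest WT and the highest Apelin-KO value being 88.3 against 84.2 FPKM. The difference was 0.33 (interval 0.05 to 0.61, unadjusted p = 0.0263, adjusted p = 0.509, limma). B2m, without which heavy chains do not reach the surface, was at 6350, 7039 and 7672 FPKM in WT and at 5123, 6765 and 5968 FPKM in Apelin-KO. Apelin-KO 2 exceeded WT 1, and the groups overlapped, with a difference of 0.24 (interval -0.08 to 0.57, adjusted p = 0.611, limma). The heavy chains are a family of related genes. Of the 75-base runs of the transcripts, 13.1% for H2-T23, 6.9% for H2-D1 and 1.6% for H2-K1 also occur in other genes, in and outside the family, so that a part of their reads may have been divided among genes. Of the B2m, Tap1, Tap2, Psmb8, Psmb9 and Nlrc5 transcripts 0.0% was shared, and of Tapbp 1.0%.

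Tap1 and Tap2 form the transporter that moves peptides into the endoplasmic reticulum. Tap1 was at 128, 130 and 133 FPKM in WT and at 91, 135 and 97.3 FPKM in Apelin-KO. WT was again narrow, with a CV of 2.0% against 21.8% in Apelin-KO, and Apelin-KO 2 was the highest sample of all. Its difference was 0.30 (interval -0.07 to 0.67, adjusted p = 0.592, limma). Tap2 was at 91.6, 89.5 and 91.3 FPKM in WT and at 73.9, 84.2 and 70.7 FPKM in Apelin-KO. The groups of Tap2 did not overlap, and the WT samples differed by a CV of 1.2%. The difference was 0.25 (interval 0.01 to 0.50, unadjusted p = 0.0453, adjusted p = 0.525, limma). Tapbp encodes tapasin, which bridges the transporter and the empty heavy chain and favours well-fitting peptides. It was at 245, 266 and 260 FPKM in WT and at 207, 248 and 200 FPKM in Apelin-KO. Only Apelin-KO 2 reached into the WT range, and the difference was 0.24 (interval -0.04 to 0.52, adjusted p = 0.568, limma).

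Psmb8 and Psmb9 encode LMP7 and LMP2, which take the place of Psmb5 and Psmb6 in the immunoproteasome and change the peptides that are cut. Psmb8 was at 372, 438 and 417 FPKM in WT and at 307, 355 and 268 FPKM in Apelin-KO. All WT samples were higher, and Psmb8 had the lowest p of the 10 genes, with a difference of 0.40 (interval 0.09 to 0.72, unadjusted p = 0.0198, adjusted p = 0.503, limma). Psmb9 was at 155, 177 and 184 FPKM in WT and at 137, 162 and 94.9 FPKM in Apelin-KO. Apelin-KO 2 lay above WT 1, so the groups overlapped, and Apelin-KO 3 was at 55.1% of the WT mean. The difference of Psmb9 was 0.42 (interval -0.05 to 0.89, adjusted p = 0.551, limma).

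Nlrc5, the class I transactivator, was at 5.37, 4.57 and 4.80 FPKM in WT and at 2.84, 5.60 and 2.26 FPKM in Apelin-KO. Apelin-KO 2 had the highest level of the 6 samples, and Apelin-KO 1 and 3 were at 57.7% and 46.0% of the WT mean, in each of these samples the lowest share of the 10 genes. The difference was 0.44 (interval -0.16 to 1.03, adjusted p = 0.617, limma), and the CV within Apelin-KO was 50.1%.

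The 10 genes followed a shared pattern over the samples. Apelin-KO 1 and Apelin-KO 3 were below every WT sample for 10 of 10 genes. Apelin-KO 2 was below every WT sample for 4 of them and above every WT sample for 3 of them (H2-D1, Tap1 and Nlrc5). As a share of the WT mean of each gene, the median over the 10 genes was 75.1% in Apelin-KO 1, 96.5% in Apelin-KO 2 and 74.1% in Apelin-KO 3, and 97.9%, 99.6% and 102.0% in WT 1, 2 and 3. Over all genes tested the same medians were between 99.5% and 100.5%. CVs of the 10 genes were 1.2% to 9.4% within WT and 9.2% to 50.1% within Apelin-KO. The correlation of each gene with the mean of the other 9 genes lay between 0.82 (B2m) and 0.987 (H2-K1) over the 6 samples, which share their group difference. The residual Apln of Apelin-KO 2, 17.5 FPKM, was between those of Apelin-KO 1 and 3.

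**Figure D2:**
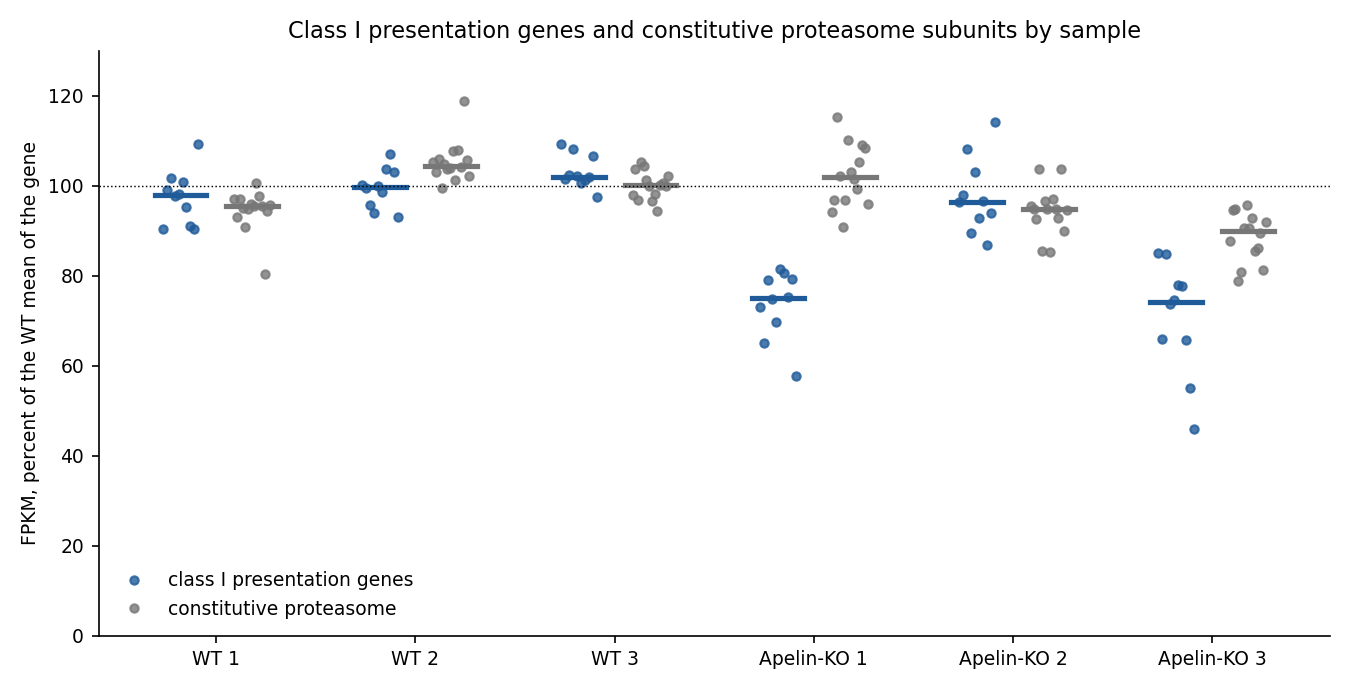
Share of the WT mean (vertical axis, percent of FPKM, from 0) for the 10 class I presentation genes (blue) and 14 constitutive proteasome genes (grey) in each sample, with a point for each gene and a bar at the median. The blue medians are 75.1% and 74.1% in Apelin-KO 1 and 3 and 96.5% in Apelin-KO 2, whereas the grey medians lie between 90.0% and 104.5% in all 6 samples.

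The counts above depend on single samples. Without Apelin-KO 2, every WT sample was above the remaining Apelin-KO samples for all 10 genes (12.6% of all genes tested), and 9 of 10 had an unadjusted p under 0.05 in limma, which 5.71% of all genes had. The exception was B2m (limma, unadjusted p = 0.0516). The differences were then 0.29 to 0.74, with a median of 0.44, and adjusted p-values of 0.333 to 0.472, so no gene passed the adjusted threshold. Without any other single sample, the number at an unadjusted p under 0.05 was 0 or 1: it was 1 without WT 1, WT 2 or Apelin-KO 1, and 0 without WT 3 or Apelin-KO 3, in fits where 2.86% to 6.77% of all genes were higher in WT at that p. The number of the 10 genes with every WT sample above every Apelin-KO sample was 7 without WT 1, where this held for 11% of all genes, and 4 without each of the others, where it held for 9.41% to 14.2%.

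Ratios within a sample do not depend on the scaling of that sample and were compared by exact two-sided permutation tests, for which 0.1 is the smallest p that 3 against 3 samples allow. The ratio of Psmb8 to Psmb5, the immunoproteasome subunit to its constitutive counterpart, was 4.38, 3.49 and 3.93 in WT and 2.67, 3.24 and 2.84 in Apelin-KO. All WT ratios were higher (log2 difference 0.43, exact p = 0.1, adjusted p = 0.2 over 6 ratios). Psmb10 to Psmb7 was 1.11, 1.27 and 1.10 in WT and 1.05, 0.979 and 0.74 in Apelin-KO, again without overlap (log2 difference 0.34, exact p = 0.1, adjusted p = 0.2). Psmb9 to Psmb6 overlapped, with means of 0.793 ± 0.047 and 0.649 ± 0.156 (SD, n = 3 each; exact permutation p = 0.3).

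The ratio between the classical heavy chains, H2-K1 to H2-D1, was 0.447, 0.476 and 0.454 in WT and 0.378, 0.415 and 0.357 in Apelin-KO. Every WT ratio was higher, including over Apelin-KO 2 (log2 difference 0.26, exact p = 0.1, adjusted p = 0.2). B2m to the sum of both heavy chains was 1.97 ± 0.18 in WT and 1.95 ± 0.16 in Apelin-KO (SD, n = 3 each; exact permutation p = 1), and Tap1 to Tap2 was 1.44 ± 0.03 and 1.40 ± 0.18 (SD, n = 3 each; exact permutation p = 0.7). With 3 samples a group, an overlap of these ratios does not show that they were equal.

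**Figure D3:**
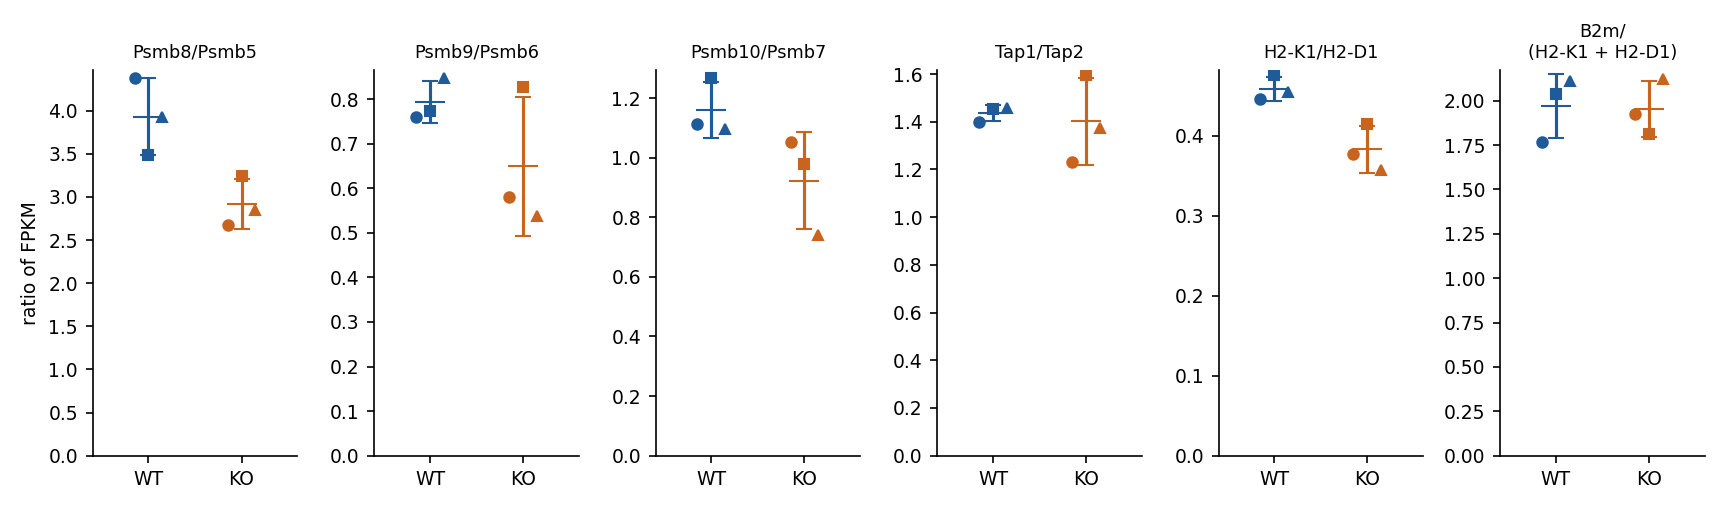
Ratios of FPKM within each sample (vertical axes, from 0) for 6 pairs of class I pathway genes in WT and Apelin-KO (KO), with points for samples 1 (circle), 2 (square) and 3 (triangle), the mean as a dash and the SD as a line (n = 3). The groups do not overlap for Psmb8/Psmb5, Psmb10/Psmb7 and H2-K1/H2-D1, and they overlap for the other 3 ratios.

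Other class I heavy chains and class I-like genes numbered 17 on the list used, of which 11 were tested. The 7 of these in the H2 locus were all higher in WT by mean, with a median difference of 0.22, and 1 of them had an unadjusted p under 0.05. Of the 6 listed below 1 FPKM on average and so not tested, H2-Q2 (0.365 to 0.495 FPKM in WT, 0.652 to 0.715 FPKM in Apelin-KO) and H2-Q10 (listed at 0 in WT, 0.077 to 0.249 FPKM in Apelin-KO) were lower in every WT sample. With no filter on the mean, both had an unadjusted p under 0.05 in limma, as H2-Q2 had with scaling of each sample to one sum. The one at an unadjusted p under 0.05 was H2-T22, a ligand of γδ T cells, at 38.3, 44.5 and 39.6 FPKM in WT and 24, 33.8 and 25.1 FPKM in Apelin-KO (difference 0.56, unadjusted p = 0.00735, adjusted p = 0.501, limma). All WT samples were higher than all Apelin-KO samples for H2-T22. Without Apelin-KO 2, 4 heavy chain genes of the list were higher in WT at an unadjusted p under 0.05 instead of 1. The number was 2 with a pseudocount of 0.1 or 0.01 and with scaling to one sum or by the upper quartile. H2-Q7, a Qa-2 chain with closely related neighbours, was at 161, 168 and 171 FPKM in WT and 99.5, 187 and 106 FPKM in Apelin-KO, and so had the pattern of H2-D1, with Apelin-KO 2 highest. The 4 genes outside the H2 locus had a lower mean in WT, with a median of -0.23 and no unadjusted p under 0.05 in the fit without a block or trend. They were Fcgrt (-0.36), the neonatal Fc receptor, Cd1d1 (-0.26), which presents lipids, Mr1 (-0.21), which presents vitamin B metabolites, and Hfe (-0.11), a regulator of iron uptake. All 4 pair with β2-microglobulin. Fcgrt had an unadjusted p under 0.05 without Apelin-KO 2 (-0.52), with the replicate block and with an intensity trend, and Cd1d1 without WT 3 (-0.42).

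Of 15 further genes of peptide supply and loading, 11 had a higher and 4 a lower mean in WT, with a median of 0.06, and 2 had an unadjusted p under 0.05, both higher in WT. These were Psmb10, the remaining immunoproteasome subunit (MECL-1), at 92.5, 113 and 97.5 FPKM in WT and 87.8, 80.6 and 59.2 FPKM in Apelin-KO (0.42, adjusted p = 0.520, limma), and Psme2, a subunit of the PA28 activator, at 31.2, 34.1 and 32.6 FPKM in WT and 30.3, 23.2 and 20.3 FPKM in Apelin-KO (0.41, adjusted p = 0.513, limma). Both lacked overlap between the groups, and in both Apelin-KO 2 was lower than Apelin-KO 1, unlike in the 10 genes. The count of 2 was 1 without WT 1 or Apelin-KO 2 and 0 without WT 2, WT 3 or Apelin-KO 3, and 0 with unmoderated variances. The tapasin homologue Tapbpl differed by 0.38 (adjusted p = 0.542, limma). The chaperones shared with other glycoproteins were near 0, with 0.02 for Calr (interval -0.21 to 0.24), 0.06 for Canx (interval -0.17 to 0.29) and -0.04 for Pdia3 (interval -0.26 to 0.18). The sign of Calr and Pdia3 depended on the scaling or the samples included.

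The 14 subunits of the constitutive proteasome, which every cell carries, had a median difference of 0.08, with 11 higher and 3 lower in WT and none at an unadjusted p under 0.05 in limma (0 at an adjusted p under 0.05). Psmb5 was at 106 ± 20.3 FPKM in WT and 106 ± 11 FPKM in Apelin-KO (SD, n = 3 each).

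**Figure D4:**
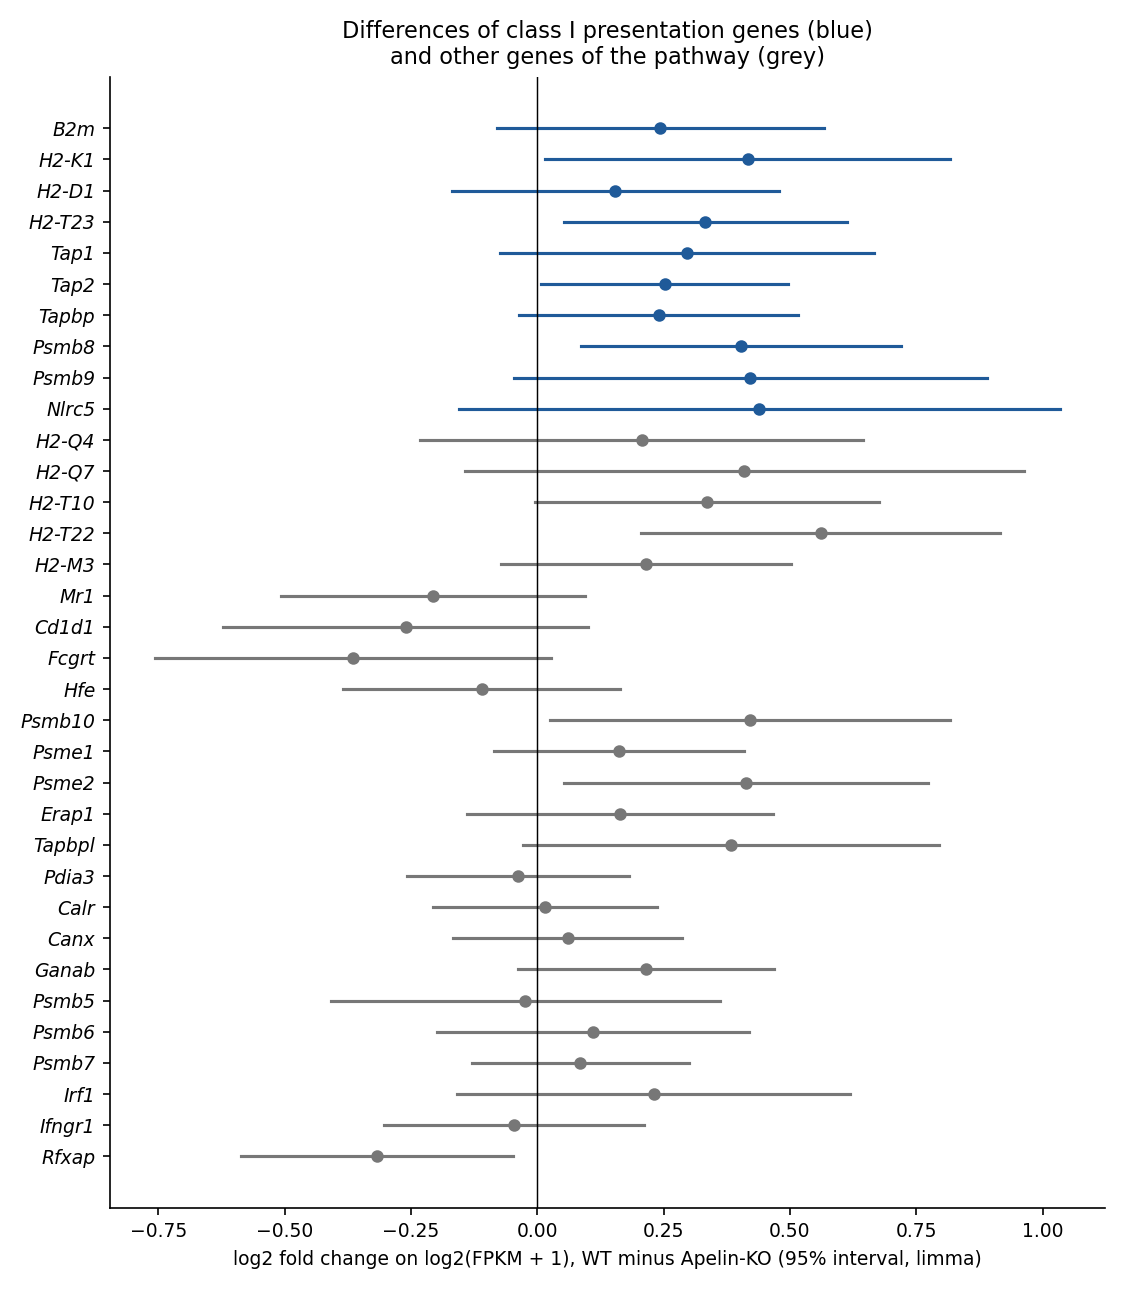
Difference in log2(FPKM + 1), WT minus Apelin-KO (horizontal axis), with the 95% interval from limma, for the 10 class I presentation genes (blue) and 24 other genes of the pathway lists (grey). All blue points are above 0, 4 of their 10 intervals exclude 0, and the grey points of Mr1, Cd1d1, Fcgrt and Hfe are below 0.

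Genes of interferon-γ signalling and of the factors at class I promoters did not share this direction. Of 17 tested, 5 had a higher and 12 a lower mean in WT, with a median of -0.06. The interferon-γ receptor Ifngr1 was at 121, 135 and 144 FPKM in WT and 147, 132 and 134 FPKM in Apelin-KO. Ifng itself was listed at 0.442 FPKM in WT 2 and at 0 in the other samples. Irf1, a transcription factor that interferon induces and that binds ISRE sequences, was at 80.1, 82 and 91.3 FPKM in WT and 56.2, 84.2 and 78 FPKM in Apelin-KO. The groups overlapped, with Apelin-KO 2 within the WT range (difference 0.23, adjusted p = 0.688, limma). Socs1, a feedback inhibitor that interferon induces, differed by 0.40 (adjusted p = 0.610, limma). The one gene with an unadjusted p under 0.05 was Rfxap, a subunit of the RFX complex, at 10.2, 10 and 10.3 FPKM in WT and 13.5, 11.1 and 14.1 FPKM in Apelin-KO. Rfxap was lower in all WT samples (-0.32, adjusted p = 0.512, limma), and of the 6 fits without 1 sample its unadjusted p was under 0.05 in the fit without Apelin-KO 2 alone.

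The 5 genes outside the 10 whose log2(FPKM + 1) was most like their mean over the 6 samples, among 5886 genes averaging 10 FPKM or more, were Ino80e (r = 0.997), Zbp1 (0.995), Cog4 (0.990), Xaf1 (0.987) and Cnot6 (0.987). These were the highest of 5886 correlations over 6 points and are given as a description. Zbp1, an interferon-induced sensor of Z-form nucleic acid, was at 101, 105 and 105 FPKM in WT and 62.6, 99.3 and 54.5 FPKM in Apelin-KO, with a difference of 0.56. Xaf1, also interferon-induced, was at 34.8, 36 and 37.5 FPKM in WT and 29.4, 34.9 and 29.4 FPKM in Apelin-KO. Ino80e, a chromatin remodeller subunit, Cog4, a Golgi tethering factor, and Cnot6, a deadenylase, had small differences of 0.14, 0.15 and 0.05.

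Markers of other cells and class II genes also differed between the groups. Of 20 hematopoietic markers, 19 were higher in WT by mean, with a median of 1.20 and 8 at an unadjusted p under 0.05. Their summed FPKM was 802.5, 1263.1 and 445.1 in WT and 274.9, 545.9 and 484.4 in Apelin-KO. Ptprc was at 3.13, 4.84 and 1.26 FPKM in WT and 0.043, 1.70 and 0.74 FPKM in Apelin-KO. The 6 class II genes tested, which professional antigen-presenting cells carry, were all higher in WT at an unadjusted p under 0.05 and had a median of 1.35. That number was 0 without WT 2 or Apelin-KO 1 and 1 without WT 1 or Apelin-KO 3, and sample weights left 1 and unmoderated variances 0. Cd74, the invariant chain, was at 307, 404 and 163 FPKM in WT and 49.2, 211 and 86.8 FPKM in Apelin-KO. The summed FPKM of the 7 class II genes listed was 588.5, 816.7 and 323.4 in WT and 100.9, 413.5 and 181.9 in Apelin-KO. As for the class I genes, Apelin-KO 1 and 3 were below every WT sample in this sum. Apelin-KO 2 was within the WT range of the class II sum. Among the class I genes, Apelin-KO 2 was below every WT sample for 4 and above every WT sample for 3. The hematopoietic sum was lowest of all samples in Apelin-KO 1 and, among the Apelin-KO samples, highest in Apelin-KO 2. In WT 3 it was 445.1 FPKM, below Apelin-KO 2 and 3, with a class I median of 102.0% of the WT mean. In WT 2 it was 1263.1 FPKM, with a class I median of 99.6%. Bulk values do not show which cells carried the class II RNA. The part of the hematopoietic and class II genes in the class I difference was not tested.

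**Figure D5:**
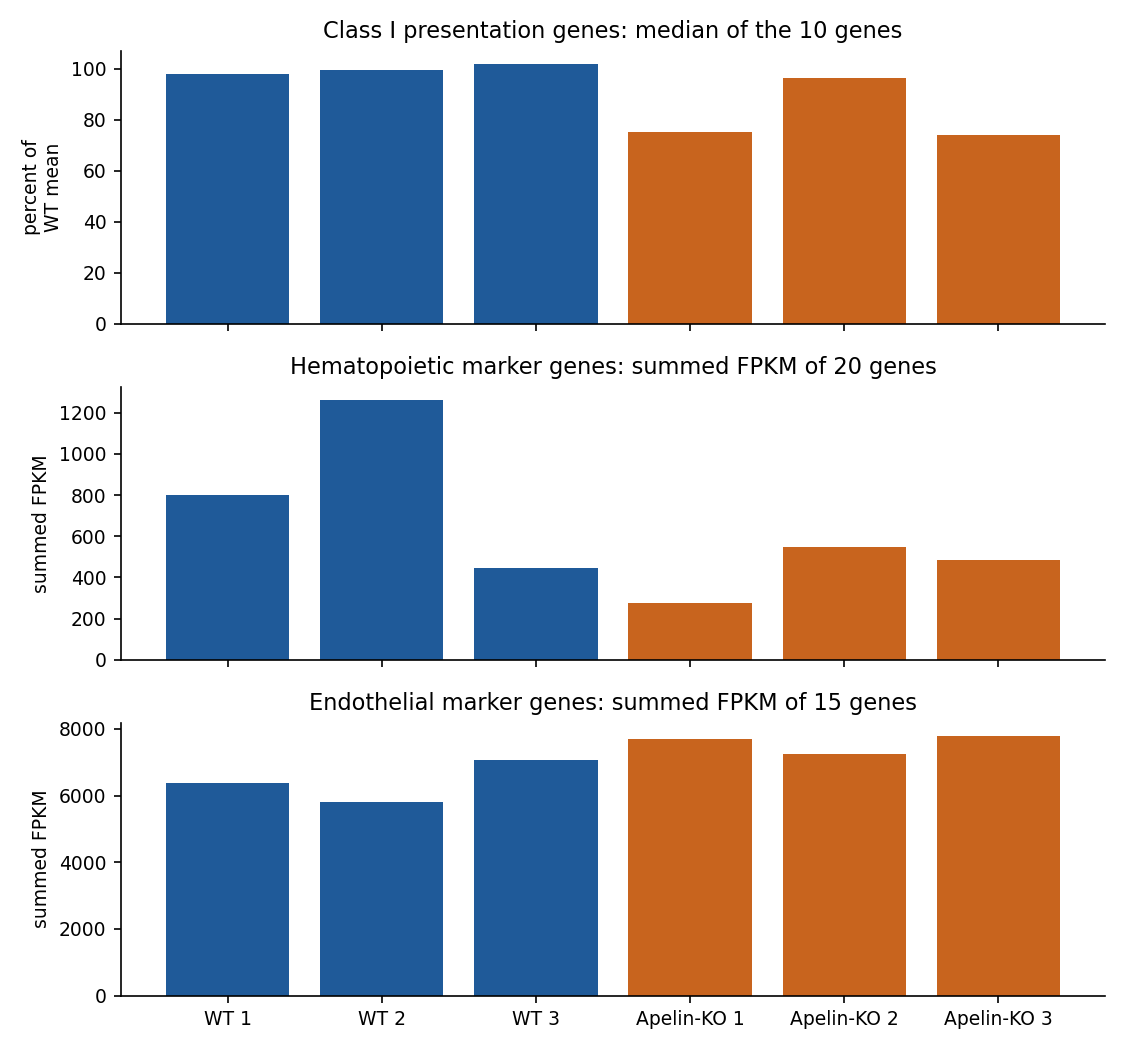
Median share of the WT mean of the 10 class I presentation genes (top, percent), summed FPKM of 20 hematopoietic markers (middle) and summed FPKM of 15 endothelial markers (bottom) in each of the 3 WT (blue) and 3 Apelin-KO (orange) samples, with axes from 0. WT 3 has a hematopoietic sum of 445.1, below the 545.9 and 484.4 of Apelin-KO 2 and 3, and the highest class I median, 102.0%. Apelin-KO 1 has the lowest hematopoietic sum, 274.9, and a class I median of 75.1%.

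T cell and NK cell markers were low: Cd3e was at 0.086 to 0.239 FPKM, and the 11 genes found summed to 5.3 to 8.2 FPKM in WT and 1.4 to 3.6 FPKM in Apelin-KO. The one tested, Nkg7, a granule protein of NK cells and cytotoxic T cells, was at 2.10, 4.56 and 4.12 FPKM in WT and 0.526, 1.76 and 0.695 FPKM in Apelin-KO. Every WT sample was higher for Nkg7 (difference 1.21, unadjusted p = 0.00444, adjusted p = 0.501, limma). Of 7 fibroblast markers tested, all were higher in WT by mean, 4 of them at an unadjusted p under 0.05, with Col1a1 at 89.5 to 186 FPKM in WT and 64.5 to 106 FPKM in Apelin-KO. Their sums over 10 genes were 207.2 to 354.2 FPKM in WT and 136.6 to 218.3 FPKM in Apelin-KO. Of 8 pericyte markers tested, 2 were higher and 6 lower in WT, with sums of 577.9 to 745.5 FPKM in WT and 652.8 to 760.8 FPKM in Apelin-KO, and Pdgfrb at 4.46 to 8.01 FPKM. The 2 at an unadjusted p under 0.05, Rgs5 (difference -0.98, unadjusted p = 5.86e-05, adjusted p = 0.214, limma) and Higd1b (-1.39, unadjusted p = 0.0057, adjusted p = 0.501, limma), were lower in every WT sample than in every Apelin-KO sample. Of 10 tumor cell markers, 1 was tested and lower in WT, the sums were 8.5 to 13.6 FPKM in WT and 9.4 to 21.7 FPKM in Apelin-KO, and Epcam was at 0 in 4 of 6 samples. The 15 endothelial markers were all lower in WT by mean, with a median of -0.24, 4 at an unadjusted p under 0.05 and sums of 5806.8 to 7074.6 FPKM against 7242.5 to 7802.3 FPKM in Apelin-KO. The class I genes were thus higher on average in the samples with the lower endothelial marker levels. The part of these markers in the class I difference was not tested.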

How the data were processed

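ECs of MC38 tumors were profiled by RNA-seq in 3 WT and 3 Apelin-KO samples, grouped by their titles. Stranded mRNA libraries were read from one end for 75 bases. The authors aligned these reads to mm10 (TopHat, Bowtie2) and took FPKM from Cufflinks 2.2.1. The deposited values are FPKM with 3 decimals per gene symbol, neither counts nor log values. The annotation, the strand setting and the handling of reads that match several genes are not given in the sources used here, and the last can shift heavy-chain levels.

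FPKM were used as deposited, on log2(FPKM + 1), which understates differences of low genes such as Nlrc5. The 10964 of 24346 genes averaging 1 FPKM or more entered a limma fit (version 3.58.1, R 4.3.3; two-sided moderated test, no trend, no block), and p-values were adjusted by Benjamini-Hochberg over all genes tested. The fit was tested on simulated data. Ratios were compared by exact permutation tests. Depth was estimated on the assumption of 200-base fragments, from 3742 genes with a single annotated transcript: at the best depth, 68.3% to 72.1% of low values fell within 0.1 of whole reads, too few for a count test.

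The members, gene lists and tests were chosen with earlier results of these data known. Named are the 10 genes, Apln, the 5 genes most like the members, in each direction the 3 genes of the class I lists with the largest difference, and, as counted lists allow, genes averaging 1 FPKM or more, or defining a list; 1 counted gene is not reported here. Alternatives changed the pseudocount, filter, scaling, variance model, sample weights or samples included. One more used the replicate number as a block. Replicate numbers come from the titles. Deviations of same-numbered samples correlated at -0.14, 0.21 and -0.02, and those of differently numbered samples at -0.20 to 0.21. These few correlations cannot decide whether the numbers pair samples. Promoter sequences are from RefSeq (GRCm38.p6), and gene positions and transcripts from GENCODE vM21. Python 3.11.15 with pandas 2.3.3 was used.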

Additional observations from a re-analysis of the deposited data

How the results depend on the processing

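Over 17 alternatives, 169 values of the 10 class I genes were computed (Nlrc5 was not tested at a mean of at least 5 FPKM). All 169 were above 0, from 0.06 (H2-D1) to 0.74 (Nlrc5), none had an adjusted p under 0.05 in limma, and the lowest adjusted p was 0.333. The number of the 10 genes at an unadjusted p under 0.05, 4 as reported, was 2 with a pseudocount of 0.1 or scaling of each sample to one sum, 1 with sample weights, 1 with the replicate number as a block, and 0 to 9 without 1 sample. It was 5 with an intensity trend. The genes whose groups did not overlap, 4 as reported, numbered 3 with scaling of each sample to one sum and 4 to 10 without 1 sample. Whether the replicate numbers pair the samples is not known. Over all genes, those with an adjusted p under 0.05, 1 as reported, were 2 with a pseudocount of 0.01, no filter, a mean of at least 5 FPKM or an intensity trend, 0 with each gene's own variance (Apln then had an adjusted p of 0.497), and 0 to 3 without 1 sample. Genes at an unadjusted p under 0.05 and higher in WT, 567 as reported, were 330 at a mean of at least 5 FPKM, 376 with each gene's own variance, and 312 to 743 without 1 sample. Signs turned for values near 0: with scaling of each sample to one sum, to 0.0049 for Pdia3 and 0.0191 for Psmb5, and over the fits without 1 sample from -0.0699 to 0.0043 for Pdia3, from -0.0271 to 0.0447 for Calr, from -0.1564 to 0.1229 for Psmb5 and from -0.1032 to 0.0208 for Ifngr1. Over the fits without 1 sample, 2 log2 ratio differences also turned sign. The range was -0.0418 to 0.0889 for B2m to the sum of both heavy chains and -0.0450 to 0.1426 for Tap1 to Tap2. The causes were not tested. The 3 samples a group limit what can be called: the intervals of 6 of the 10 genes include 0, and the depth of Nlrc5 was an estimated 157 to 422 reads.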
